A study of Mus musculus with 8 samples.

Results

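Zyxin-family proteins and paxillin link the cytoplasmic face of focal adhesions to actin, and their transcripts were followed in NMuMG mouse mammary epithelial cells with and without *Lnc-Nr6a1*, before and after TGF-β. The 7 genes, of 37310 in the count table, were selected by symbol as *Wtip*, *Jub*, *Limd1*, *Zyx*, *Lpp*, *Trip6* and *Pxn*, and all 7 had a row. The family was chosen by the values of *Wtip*, which was nearly absent from the treated knockout libraries, so *Wtip* is described below with no test. The values of the other 6 genes did not choose the family, and these were tested.

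The study asked how loss of *Lnc-Nr6a1*, a long non-coding RNA and host of microRNA genes that TGF-β induces early, alters gene expression and the TGF-β response. There were 4 groups of 2 libraries, 8 in all: control NMuMG cells without treatment, control NMuMG cells given TGF-β1 at 10 ng/ml for 2 h, untreated *Lnc-Nr6a1* knockout (KO) cells, and KO cells given the same TGF-β1 treatment. All 4 groups grew in medium with serum and insulin. The KO came from a CRISPR-Cas9 deletion that spans the promoter and first exon, in clones grown from single sorted cells. The labels do not say which clone, or how many clones, gave these libraries, so that a property of a clone and an effect of the deletion cannot be told apart. The study's methods call the 2 libraries of a group biological replicates. Neither they nor the labels say what was repeated, so p-values measure the spread between these libraries.

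Library totals ran from 4297832 to 13574397 counts, both extremes being libraries labelled KO. *Lnc-Nr6a1* itself (*Gm13507*) had 3 and 14 counts in untreated control, 25 and 35 in treated control, 11 and 7 in untreated KO and 0 and 0 in treated KO libraries. The treated libraries followed their labels, whereas the untreated ones did not separate by genotype, and "untreated KO" below means the libraries labelled so. *Tns1*, noticed after its values had been seen, did separate them (1.81 and 1.59 CPM, counts scaled to library size, in untreated control, 16.5 and 17.8 in untreated KO libraries). A gene noticed this way does not show which of these libraries carry the deletion. The epithelial keratins *Krt8*, *Krt18* and *Krt19* and *Cdh1* were counted abundantly in every library, but of the 7 epithelial markers examined *Cldn3* and *Esrp1* had no count and *Epcam* at most 2. The leukocyte, endothelial, fibroblast and muscle markers summed to at most 5.32, 0.847, 0.847 and 1.32 CPM in any library. In bulk RNA, fewer cells expressing a gene and less RNA per cell cannot be told apart.

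All 7 proteins carry LIM domains, zinc-binding modules for protein contacts, at their C-terminus. Zyxin, LPP and TRIP6 form the zyxin group, which recruits Ena/VASP proteins and alpha-actinin to adhesions and stress fibres under tension. Ajuba (*Jub*), LIMD1 and WTIP form the Ajuba group, which binds LATS kinases of the Hippo pathway at adherens junctions and serves Snail as a co-repressor in the nucleus. Paxillin belongs to a neighbouring family of scaffolds with LD motifs, and is no zyxin-family protein by sequence. Both groups shuttle between adhesions and the nucleus, and focal adhesions are rebuilt when epithelial cells undergo the TGF-β-driven epithelial-to-mesenchymal transition.

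The genes lie on 6 chromosomes. On NCBIM37 (mm9), with GENCODE vM1 gene bounds, *Wtip* is at chr7:34894562-34918287 on the minus strand, *Jub* at chr14:55186309-55196253 (minus) and *Limd1* at chr9:123387819-123430666 (plus). *Zyx* is at chr6:42299827-42310145 (plus), *Lpp* at chr16:24393436-24992662 (plus), *Trip6* at chr5:137751127-137755632 (minus) and *Pxn* at chr5:115956685-116005996 (plus). Counts cover the exons of each gene. Overlapping annotated genes were sparse in these libraries, with 0 to 6 counts for *Epha1* opposite *Zyx*, 1 to 8 for *Gm13840* within *Pxn* and 14 to 58 for the long non-coding RNA *1110054M08Rik* opposite *Lpp*.

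RefSeq promoters (GRCm38.p6) matched 5 of the 7 genes, and *Limd1* and *Pxn* had no entry. The 250 bases before the start were searched on both strands for ACATTCC, the TEAD word through which YAP acts, for TGACTCA, the AP-1 word, for GTCTAGAC and CAGAC, both SMAD words of which neither contains the other, and for the SRF CArG box. Sequences are shown for the 4 genes that held a TEAD or AP-1 word, with those words in capitals and read in the direction of the gene. They come from chr7:34133269-34133518 (minus) for *Wtip*, chr14:54577662-54577911 (minus) for *Jub*, chr5:137314242-137314491 (minus) for *Trip6* and chr6:42349578-42349827 (plus) for *Zyx*.
Wtip: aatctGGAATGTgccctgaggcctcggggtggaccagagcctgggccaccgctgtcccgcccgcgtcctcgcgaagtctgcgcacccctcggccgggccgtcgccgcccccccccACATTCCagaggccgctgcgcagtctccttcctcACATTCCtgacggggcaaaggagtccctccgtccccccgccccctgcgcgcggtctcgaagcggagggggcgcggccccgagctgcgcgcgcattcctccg
Jub: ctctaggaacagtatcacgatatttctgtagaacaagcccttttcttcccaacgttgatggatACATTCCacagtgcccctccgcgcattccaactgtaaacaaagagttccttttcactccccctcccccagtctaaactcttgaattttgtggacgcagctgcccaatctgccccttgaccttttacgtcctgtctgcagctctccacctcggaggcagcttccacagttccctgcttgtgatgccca
Trip6: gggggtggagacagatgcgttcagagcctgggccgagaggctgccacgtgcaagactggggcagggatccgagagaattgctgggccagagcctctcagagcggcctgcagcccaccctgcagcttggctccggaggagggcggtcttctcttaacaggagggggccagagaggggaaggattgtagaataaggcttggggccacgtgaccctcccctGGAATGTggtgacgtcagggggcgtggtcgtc
Zyx: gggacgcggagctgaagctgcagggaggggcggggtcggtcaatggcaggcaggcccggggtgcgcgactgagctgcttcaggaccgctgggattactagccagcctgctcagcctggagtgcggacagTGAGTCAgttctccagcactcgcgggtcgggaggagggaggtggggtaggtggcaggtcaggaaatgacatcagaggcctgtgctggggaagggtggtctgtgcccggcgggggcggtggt
*Wtip* held 3 separate TEAD words, which began 245, 135 and 101 bases before the start, the farthest of them on the opposite strand. *Jub* held 1 at 187 bases and *Trip6* 1 at 32 bases, and 3.25% of the 32851 promoters of this length held at least 1. *Zyx* held no TEAD word and 1 AP-1 word, at 121 bases, which 4.46% of all promoters held. No promoter of the 5 genes held GTCTAGAC (0.167% of all promoters) or a CArG box (1.47%), and the short word CAGAC was in the promoters of *Wtip*, *Jub*, *Lpp* and *Zyx* and in 42.2% of all promoters. A match describes letters in this window and not a bound site.

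Per exonic length, the levels over the 8 libraries fell into a high, a middle and a very low range. On the RPKM scale (CPM per kilobase of exon), *Jub* had 46.8 ± 8.01 and *Limd1* 45.6 ± 5.28 (mean ± SD over all libraries, n = 8). *Trip6* had 27.5 ± 8.17, *Zyx* 18.7 ± 13.8, *Pxn* 18.1 ± 5.71 and *Lpp* 16.8 ± 2.61. *Wtip* stood apart at 1.10 ± 0.866. The means of *Jub* and *Limd1* did not differ beyond this spread, nor did those of neighbours in the order *Trip6*, *Zyx*, *Pxn* and *Lpp*. This spread mixes the 4 groups. In untreated control *Zyx* was below *Trip6*, at 11.1 against 24.5 and 10.5 against 17.01 RPKM. In untreated KO it was also below, at 8.31 against 32.8 and 9.73 against 29.3. After TGF-β *Zyx* was below *Trip6* in replicate 1 of either genotype. In replicate 2 it was above, at 15.2 against 14.9 in control and 48.01 against 36.7 in KO. The Ajuba group therefore rested on *Jub* and *Limd1* in these cells, with *Wtip* adding 1.31% of the group's reads at most. The highest CPM was 1.42 times the lowest for *Limd1* and 5.78 times for *Zyx*.

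**Figure D1:**
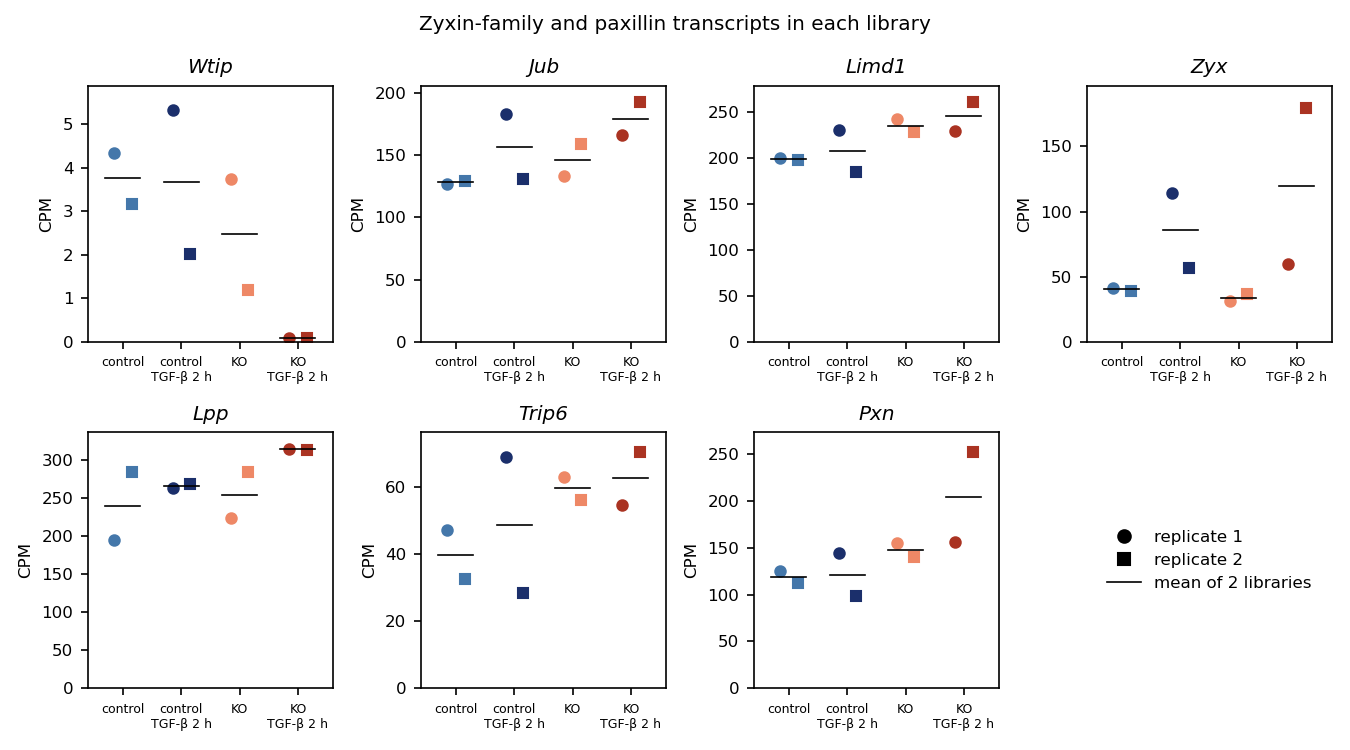
CPM of each gene (y axis, from 0) in the 4 groups (x axis). Circles are replicate 1, squares replicate 2 and bars the mean of 2 libraries. *Wtip* is close to 0 in both treated KO libraries, and *Zyx* is higher in every treated than in any untreated library.

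*Wtip* was counted 36 and 26 times in untreated control, 57 and 19 times in treated control, 17 and 9 times in untreated KO and 1 and 1 times in treated KO libraries. In CPM these were 4.34 and 3.17, 5.34 and 2.01, 3.75 and 1.20, and 0.0815 and 0.0795. Both treated KO libraries, which were the deepest of the 8, lay below the level of 3 counts (0.245 and 0.238 CPM), and all other libraries lay above their own. Over the 2 libraries of a group, treated KO held 2 counts and treated control 76. Scaled to the TMM library sizes, as are all *Wtip* ratios given here, the ratio was 0.0213 with a 95% counting interval of 0.00253 to 0.0797. Between treated and untreated KO, with 2 and 26 counts, the scaled ratio was 0.0373 (0.00429 to 0.149). These intervals cover counting error only, and these are the values for which the family was chosen.

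Outside treated KO, *Wtip* was low but present. Treated and untreated control gave a scaled ratio of 1.00 (0.709 to 1.43). Untreated KO against untreated control, with 26 and 62 counts, gave 0.573 (0.348 to 0.920), although untreated KO replicate 1, at 3.75 CPM, lay between the control libraries and replicate 2, at 1.20 CPM, lay below both. The replicates differed 3.13-fold in untreated KO, more than the 1.74-fold by which untreated KO lay under untreated control after scaling, and 2.66-fold in treated control. The untreated groups thus overlapped in *Wtip*, and the treated KO libraries stood apart from all others.

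As a share of the reads of *Wtip*, *Jub* and *Limd1*, which does not depend on library size, *Wtip* made up 1.31 and 0.963% in untreated control and 1.28 and 0.635% in treated control. The share was 0.991 and 0.308% in untreated KO. In treated KO it was 0.0207% (95% Wilson interval 0.00365 to 0.117) and 0.0175% (0.0031 to 0.0993), the lowest shares of the 8. That of untreated KO replicate 2 (0.162 to 0.585) was the next lowest.

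**Figure D2:**
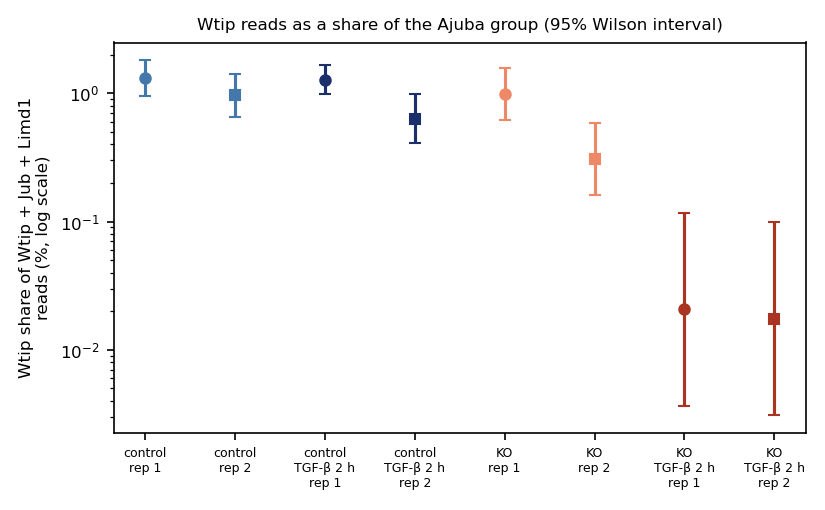
*Wtip* reads as a percentage of *Wtip*, *Jub* and *Limd1* reads (y axis, log scale) in each library (x axis), with 95% Wilson intervals. Both treated KO libraries lie lowest, at 0.0207 and 0.0175%, and untreated KO replicate 2 is the next lowest.

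*Wtip* was set beside its neighbours on chromosome 7, the 5 tested genes on each side. On the near side, *Uba2*, which encodes a subunit of the SUMO-activating enzyme and lies 7.42 kb away, had 1950 and 1878 counts in untreated control, 3083 and 3190 in treated control, 736 and 1127 in untreated KO and 1883 and 2032 in treated KO libraries. It fell by 0.99 ± 0.14 (SE) on the log2 scale in treated KO against treated control (edgeR quasi-likelihood test, Benjamini-Hochberg adjusted p = 0.00313). In the untreated comparison it fell by 0.57 ± 0.14 and did not pass (adjusted p = 0.0792, edgeR). *Lsm14a*, an mRNA-decapping factor 211 kb away, fell by 0.58 ± 0.16 (adjusted p = 0.0391, edgeR). The 3 genes between them, *Pdcd2l*, *Gpi1* and *4931406P16Rik*, did not pass the test. On the far side, the nearest tested gene was 2958 kb away and none of the 5 passed in treated KO, while in the untreated comparison *Lsr*, a tricellular junction protein, fell by 0.99 ± 0.20 (adjusted p = 0.0469, edgeR). The log2 fold changes of the 10 neighbours lay between -1.30 and 0.75 over both comparisons.

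Chromosome 7 as a whole was also lower. In untreated KO against control the median log2 fold change of its 943 tested genes was -0.251, and 75.3% were below 0, against a median of 0.0346 and 45.8% for the other chromosomes. In treated KO the median was -0.136 with 60.0% below 0, against -0.00213 and 50.2% elsewhere. Its part in the *Wtip* values was not tested.

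**Figure D3:**
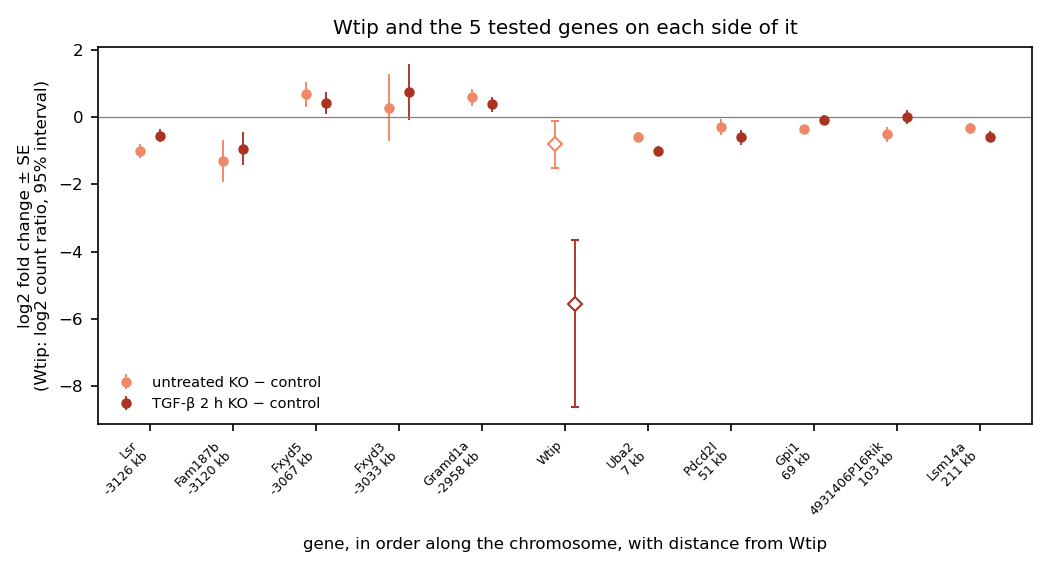
Log2 fold change ± SE of KO against control (y axis) for *Wtip* and the 5 tested genes on each side in chromosomal order (x axis, distance in kb), untreated (light) and after TGF-β (dark). For *Wtip* (open diamonds) the log2 ratio of counts scaled to library size is drawn with its 95% counting interval. The neighbours stay between -1.30 and 0.75.

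Among all tested genes, those whose log2 CPM followed *Wtip* most closely over the 8 libraries were *Chaf1b* (Pearson r = 0.99), *Cdk2* (r = 0.984) and *Slc25a13* (r = 0.981). *Chaf1b*, a chromatin assembly subunit, had 962 and 859 counts in untreated control, 1323 and 914 in treated control, 490 and 715 in untreated KO and 716 and 709 in treated KO libraries. None of its libraries neared 0. *Csrp2*, a smooth-muscle LIM protein, was the closest of the adhesion and LIM genes listed below (r = 0.841). The 6 other members had negative correlations with *Wtip*, from -0.253 for *Trip6* to -0.737 for *Lpp*. All 8 points share their libraries and *Wtip* rests on few counts, so these r describe likeness only.

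The genotype comparison asked whether the rest of the family followed *Wtip*. Called here means an adjusted p below 0.05 (edgeR quasi-likelihood test, Benjamini-Hochberg over 13028 genes) and a log2 fold change beyond 0.5. None of the 6 other genes was called in untreated KO against control, where 1.83% of all genes were called (1.03% higher and 0.798% lower), and none had an unadjusted p below 0.05. None was called in treated KO against treated control either, where 15.0% of all genes were called (8.47% higher and 6.57% lower). There 1 of 6, *Pxn*, had an unadjusted p below 0.05, as had 31.4% of all genes. The median log2 fold change of the 6 was 0.22 untreated and 0.30 treated, against 0.02 and -0.01 over all genes.

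Of the remaining Ajuba-group genes, *Jub* had 127 and 129 CPM in untreated control, 183 and 131 in treated control, 133 and 158 in untreated KO and 166 and 192 in treated KO libraries. Both untreated KO libraries lay above both untreated controls (log2 difference 0.19, -0.22 to 0.60, adjusted p = 0.681 by edgeR), and the treated groups overlapped. The log2 difference in treated KO against treated control was 0.19 with a 95% interval of -0.22 to 0.60 (adjusted p = 0.511, edgeR), and -0.0151 without treated control replicate 2.

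*Limd1* had 199 and 197 CPM in untreated control, 230 and 184 in treated control, 241 and 228 in untreated KO and 229 and 261 in treated KO libraries. Every untreated KO library was above both untreated controls, yet by little, with a log2 difference of 0.24 (-0.09 to 0.58, adjusted p = 0.50 by edgeR). The treated difference was also 0.24 (-0.10 to 0.58, adjusted p = 0.305 by edgeR), with overlapping libraries. For either gene a treated difference of more than 0.60 on the log2 scale lies outside these intervals, and a smaller one could not be told from none.

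In the zyxin group, *Zyx*, which carries the Ena/VASP-binding motifs of the family's founder, had 41.4 and 39.2 CPM in untreated control and 31.1 and 36.4 in untreated KO libraries. With TGF-β it had 114 and 56.8 CPM in control and 59.8 and 180 in KO libraries. The treated libraries of either genotype interleaved, and the log2 difference was 0.48 (-0.52 to 1.48, adjusted p = 0.50 by edgeR). It was -0.51 without treated KO replicate 2 and at most 1.08 with another library left out. The untreated difference was -0.25 (-1.31 to 0.81, adjusted p = 0.852 by edgeR).

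*Lpp*, whose product also binds VASP and alpha-actinin, had 195 and 285 CPM in untreated control, 264 and 268 in treated control, 223 and 284 in untreated KO and 314 and 314 in treated KO libraries. Both treated KO libraries were the highest of the 8 and nearly equal, while the untreated KO libraries lay within the range of the untreated controls. The treated log2 difference was 0.24 (-0.19 to 0.67, adjusted p = 0.42 by edgeR).

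*Trip6*, whose product also binds nuclear receptors and kinases, had 47.2 and 32.7 CPM in untreated control, 69.2 and 28.6 in treated control, 63.0 and 56.4 in untreated KO and 54.7 and 70.6 in treated KO libraries. Treated control replicates differed 2.42-fold, and the treated KO values lay between them and just above the higher. The log2 difference was 0.58 (-0.23 to 1.38, adjusted p = 0.502 by edgeR) untreated and 0.36 (-0.43 to 1.14, adjusted p = 0.526 by edgeR) treated. Without treated control replicate 1 the treated difference was 1.13 and was called (adjusted p = 0.0167, edgeR), and without treated control replicate 2 it was -0.13 and was not.

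*Pxn*, the scaffold on which focal adhesion kinase and Crk signalling assemble, came nearest to a call. It had 126 and 112 CPM in untreated control, 144 and 98.8 in treated control, 155 and 141 in untreated KO and 156 and 252 in treated KO libraries. Each KO library was above every control library of the same treatment. The log2 difference was 0.75 ± 0.24 (SE) in treated libraries, with an interval of 0.21 to 1.29 (adjusted p = 0.0659, edgeR), and 0.32 (-0.23 to 0.86, adjusted p = 0.595 by edgeR) in untreated ones. The treated difference was 0.37 without treated KO replicate 2, and it was called by DESeq2 (0.76, adjusted p = 0.0187). When the untreated and the treated difference of the genotypes were averaged, a comparison chosen after the data had been seen, 0 of 6 genes and 13.9% of all genes were called, and *Pxn* had 0.53 ± 0.17 (SE, adjusted p = 0.0592 by edgeR).

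**Figure D4:**
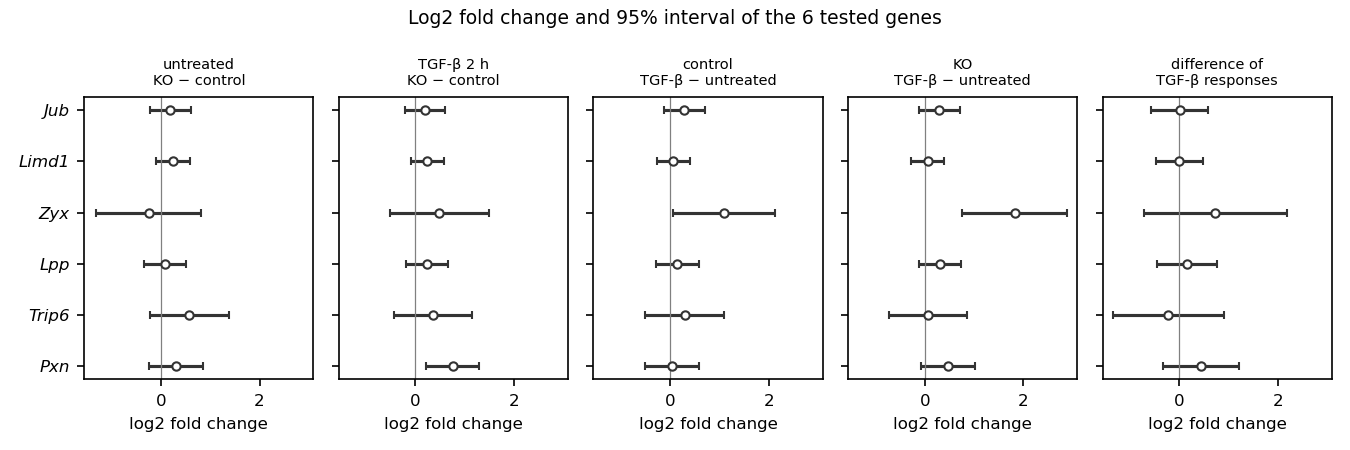
Log2 fold change (x axis) with 95% interval for the 6 tested genes (y axis) in the 4 comparisons and in the difference of TGF-β responses. The interval lies above 0 for *Pxn* in treated KO against control and for *Zyx* in both TGF-β responses, before adjustment for the 13028 genes tested.

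The TGF-β comparison asked which genes the cytokine moved within 2 h in each genotype, and *Zyx* had the largest fitted change of the 6. None of the 6 genes was called in control cells, where 9.16% of all genes were called (4.69% higher and 4.47% lower), nor in KO cells, where 6.82% were called (4.25% higher and 2.57% lower). The log2 response of *Zyx* was 1.09 ± 0.46 (SE) in control (0.06 to 2.12, adjusted p = 0.166 by edgeR) and 1.82 ± 0.47 in KO cells (0.76 to 2.88, adjusted p = 0.0507 by edgeR), the latter called by DESeq2 (1.84, adjusted p = 0.0466). Without treated control replicate 1 the control response was 0.49, and without treated KO replicate 2 the KO response was 0.83. Every treated library lay above every untreated library of either genotype, but treated replicates differed 2.01-fold in control and 3.0-fold in KO cells. Averaged over the genotypes, a comparison chosen after the data had been seen, *Zyx* was the only gene of the 6 called, at 1.46 ± 0.33 (adjusted p = 0.0154, edgeR), where 14.8% of all genes were called. It no longer passed when any 1 of the 4 untreated libraries was left out, with adjusted p between 0.0571 and 0.0713 (edgeR), and without treated KO replicate 2 the averaged response was 0.95.

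The fitted responses of the other 5 genes were smaller. *Jub* had 0.29 in control and 0.30 in KO cells (adjusted p = 0.339 and 0.385, edgeR), and its treated libraries lay above the untreated ones of the same genotype in both. *Lpp* had 0.15 and 0.31, *Limd1* 0.06 and 0.06, and *Trip6* 0.29 and 0.07 on the same scale. Leaving out 1 library turned the sign of the control response of *Limd1*, *Lpp*, *Trip6* and *Pxn* and of the KO response of *Limd1* and *Trip6*. *Pxn* had 0.03 (-0.51 to 0.58) in control and 0.47 (-0.08 to 1.01) in KO cells, with adjusted p of 0.951 and 0.291 (edgeR). The median of the 6 was 0.22 in control and 0.30 in KO cells, against 0.02 and 0 over all genes.

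The difference of the TGF-β responses between genotypes was tested directly. By edgeR 0 of 6 genes and 0.00% of all genes were called at an adjusted p below 0.05, although 1134 genes had an unadjusted p below 0.05, none of them among the 6, and DESeq2 called 30 genes. The difference was 0.73 (-0.73 to 2.19) for *Zyx*, 0.44 (-0.33 to 1.21) for *Pxn* and -0.22 (-1.34 to 0.90) for *Trip6*. For *Jub* it was 0.00 (-0.58 to 0.59) and for *Limd1* 0.00 (-0.48 to 0.47). For each of the 6 genes but *Pxn*, the sign of this difference turned when some 1 library was left out. These intervals leave room for sizeable differences in *Zyx* and *Trip6* and limit those in *Limd1* to less than 0.48 in either direction.

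*Zyx* took a larger share of the zyxin group in treated libraries. In RPKM, *Zyx* made up 23.2 and 23.1% of the sum of *Zyx*, *Lpp* and *Trip6* in untreated control and 36.8 and 32.5% in treated control libraries. In KO cells the share was 15.1 and 17.1% untreated and 25.0 and 46.0% treated. Each treated library was above the untreated ones of its genotype. Summed, the zyxin group had 47.8 and 45.3 RPKM in untreated control, 83.0 and 46.8 in treated control, 55.1 and 56.8 in untreated KO and 64.1 and 104 in treated KO libraries, so that only 1 library per treated group stood well above the rest.

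Those libraries were treated control replicate 1 and treated KO replicate 2. Each held the higher *Zyx* value of its group. The genes closest to it over the 8 libraries, a likeness examined after its values had been seen, were *Itprip* (r = 0.989), *Gramd1b* (r = 0.988) and *Zc3h12a* (r = 0.987). Of the adhesion genes listed below, vinculin (*Vcl*), which tethers talin to actin, was closest (r = 0.977), with 2740 and 2984 counts in untreated control, 5174 and 3712 in treated control, 1554 and 2645 in untreated KO and 4735 and 7154 in treated KO libraries. For *Pxn* they were *Rhbdf1* (r = 0.988), *Ehd4* (r = 0.982) and *Bhlhe41* (r = 0.978), and of the listed genes p130Cas (*Bcar1*, r = 0.964), an adaptor of the same signalling, while *Limd1* was the closest member (r = 0.925). These r are over 8 libraries that share the 2 high ones.

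The family was then set among the genes it works with, 84 genes in 6 lists of which 73 were tested. In the core focal adhesion list (talins, vinculin, the ILK, PINCH and parvin complex, kindlins, kinases, Cas adaptors and tensins), 12 of 27 tested genes rose and 0 fell in treated KO against treated control. That is 44.4% higher against 8.47% of all genes, with a list median log2 fold change of 0.52 against -0.01. Without treated KO replicate 2, 4 of the 27 genes were called (14.8%, against 3.73% of all genes), and with only the 4 treated libraries in the fit, 3 (11.1% against 3.09%). In the untreated comparison 1 gene of 27 was called (3.7%, against 1.83% of all genes). The difference between the untreated and treated comparison was called for 0 genes of the list by edgeR, which called 0 of all genes. DESeq2 called it for 1 gene of the list (3.7%, against 0.23% of all genes). By edgeR 5 of the 27 had an unadjusted p below 0.05 in this difference, as had 8.7% of all genes.

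Of the genes that rose, tensin 1 (*Tns1*), which binds the integrin tail and actin, had 1.81 and 1.59 CPM in untreated control, 8.71 and 6.46 in treated control, 16.5 and 17.8 in untreated KO and 35.4 and 30.3 in treated KO libraries. It was the gene called in the untreated comparison, at 3.33 ± 0.28 (adjusted p = 0.000764, edgeR), and rose by 2.11 ± 0.23 in treated KO (adjusted p = 0.00117, edgeR). PINCH-2 (*Lims2*), a LIM-only partner of ILK, had 10.0 and 8.04 CPM in treated control and 42.2 and 42.8 in treated KO libraries (2.23 ± 0.28, adjusted p = 0.00234 by edgeR). Talin 1 (*Tln1*), the integrin activator, had 212 and 199 against 379 and 464 CPM (1.04 ± 0.15, adjusted p = 0.0037 by edgeR). The adaptor *Crkl*, which docks on phosphorylated paxillin and p130Cas, had 47.2 and 43.8 against 75.9 and 81.5 CPM (0.79 ± 0.14, adjusted p = 0.00794 by edgeR).

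**Figure D5:**
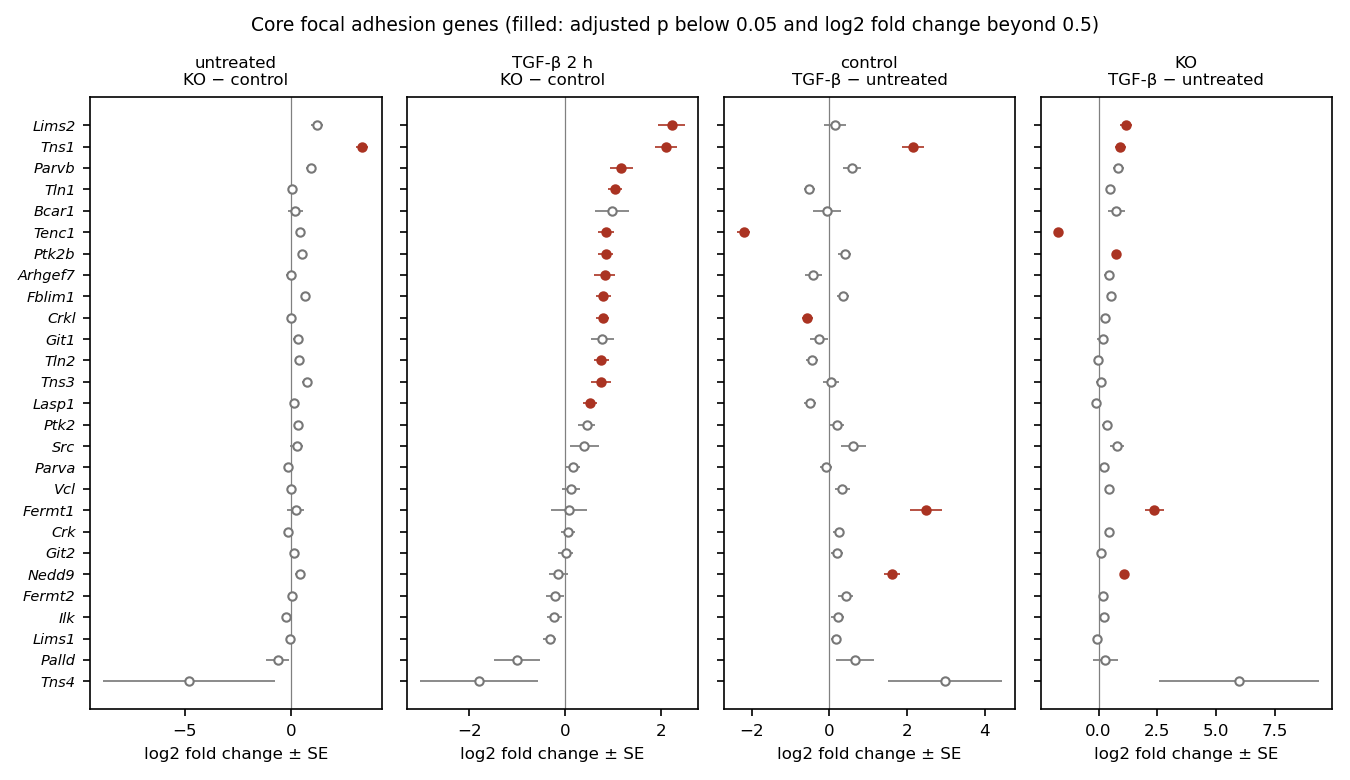
Log2 fold change ± SE (x axes, scaled separately) of the 27 tested core focal adhesion genes (y axis) in 4 comparisons, filled where called. In treated KO against control 12 genes are called, all higher, and in the untreated comparison only *Tns1* is.

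With TGF-β, 3 of the 27 core genes rose and 2 fell in control cells (11.1% and 7.41%, against 4.69% and 4.47% of all genes). In KO cells 5 rose and 1 fell (18.5% and 3.70%, against 4.25% and 2.57%), so that the shares that fell were near those of all genes. Kindlin 1 (*Fermt1*), a co-activator of integrins, rose by 2.50 ± 0.41 in control and 2.38 ± 0.41 in KO cells (adjusted p = 0.00767 and 0.0105, edgeR). The Cas-family adaptor *Nedd9* rose by 1.62 ± 0.20 and 1.10 ± 0.20 (adjusted p = 0.00248 and 0.0135, edgeR). Tensin 2 (*Tenc1*) fell by 2.21 ± 0.17 and 1.74 ± 0.17 on the log2 scale (adjusted p = 0.000416 and 0.000689, edgeR). *Tns1* rose by 2.15 ± 0.29 in control cells and by 0.93 ± 0.23 in KO cells (adjusted p = 0.00308 and 0.0402, edgeR). In KO cells the focal adhesion kinase relative *Ptk2b* rose by 0.76 ± 0.17 (adjusted p = 0.0266, edgeR). Without untreated KO replicate 1 or 2, 1 core gene was called in the KO response (3.70%, against 1.04% and 1.21% of all genes), and without treated KO replicate 2 there were 2 (7.41% against 2.11%). Without untreated control replicate 1 there were 3 in the control response (11.1% against 1.07%).

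The direct partners of the family came next. None of the 5 tested Ena/VASP and alpha-actinin genes, the ligands of the zyxin group, was called in the 4 comparisons by edgeR, with log2 fold changes from -0.29 to 0.53 in treated KO against control. An unadjusted p below 0.05 was found for 0, 1, 1 and 1 of the 5 in the untreated, treated, control-response and KO-response comparisons, and for 14.9, 31.4, 26.8 and 22.7% of all genes. Of the paxillin paralogues only *Lpxn* was tested, and it was not called in these 4 (0 to 12 counts a library). In the averaged TGF-β response, chosen after the data had been seen, it fell by 2.25 ± 0.68 on the log2 scale (adjusted p = 0.0463, edgeR). Of all genes 14.8% were called there.

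Among 11 Hippo genes tested, none was called in the untreated comparison or the KO response, where 1.83% and 6.82% of all genes were. In treated KO against treated control 1 rose and 1 fell, 9.09% each, against 8.47% and 6.57% of all genes, and in the control response 1 rose, 9.09% against 4.69%. *Yap1*, the co-activator that the pathway restrains, had 90.8 and 102 CPM in treated control and 149 and 163 in treated KO libraries, and rose by 0.69 ± 0.14 (adjusted p = 0.0121, edgeR). The upstream kinase MST2 (*Stk3*) had 62.5 and 67.3 against 45.2 and 38.1 CPM and fell by 0.64 ± 0.16 (adjusted p = 0.0308, edgeR), and with TGF-β in control cells it rose by 0.61 ± 0.17 (adjusted p = 0.04997, edgeR). Without treated KO replicate 2, or with only the treated libraries in the fit, 0 Hippo genes were called in treated KO (against 3.73% and 3.09% of all genes), and the call in the control response was lost whichever library was left out. The 2 LATS kinases, to which the Ajuba group binds, were not called.

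Of 11 other partners of the Ajuba group, *Lpp* or *Trip6*, Snail (*Snai1*) alone was called in any of the 4 comparisons. That is 9.09% in treated KO against treated control and in the control and KO responses, where 15.0%, 9.16% and 6.82% of all genes were called. It had 6 and 6 counts in untreated control, 163 and 118 in treated control, 7 and 11 in untreated KO and 320 and 275 in treated KO libraries. It rose by 4.23 ± 0.32 with TGF-β in control and 3.99 ± 0.30 in KO cells (adjusted p = 0.000416 and 0.000313, edgeR), and was higher by 0.79 ± 0.23 in treated KO than in treated control (adjusted p = 0.0479, edgeR). This last call was lost by DESeq2 and when any library but treated control replicate 1 was left out.

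Other LIM genes of the actin cytoskeleton were also counted. Of 18 tested, 5 rose and 2 fell in treated KO against treated control, 27.8% and 11.1%, where 8.47% and 6.57% of all genes did. Without treated KO replicate 2, or with only the 4 treated libraries in the fit, 3 of the 18 were called (16.7%, against 3.73% and 3.09% of all genes). Without untreated control replicate 1 or 2, 4 were called (22.2%, against 10.4% and 10.5% of all genes). *Pdlim1*, a PDZ and LIM adaptor of alpha-actinin, had 34 and 47 counts in untreated control, 79 and 77 in treated control, 5 and 1 in untreated KO and 0 and 7 in treated KO libraries (adjusted p = 0.00811 in treated KO, edgeR). It was not called in the untreated comparison (adjusted p = 0.125, edgeR). *Ablim1* rose by 1.56 ± 0.18, *Fhl1* by 1.68 ± 0.31 and *Micall1* by 1.11 ± 0.23 (adjusted p = 0.00159, 0.00969 and 0.015, edgeR), and *Micall1* was among the calls lost without treated KO replicate 2.

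In the control response 1 of these 18 genes rose and 2 fell (5.56% and 11.1%, against 4.69% and 4.47% of all genes), and in the KO response 2 rose and 0 fell (11.1%, against 4.25% higher over all genes). *Pdlim7* rose by 1.39 ± 0.33 in control and 1.74 ± 0.33 in KO cells (adjusted p = 0.0328 and 0.0158, edgeR), with 164 and 92.0 CPM in treated control and 121 and 232 in treated KO libraries. Like *Zyx*, it was higher in treated control replicate 1 and treated KO replicate 2. *Micall1* rose by 1.40 ± 0.24 in KO cells (adjusted p = 0.00953, edgeR). *Ablim1* fell by 0.79 ± 0.18 and *Lima1* by 0.63 ± 0.15 in control cells (adjusted p = 0.0289 and 0.0321, edgeR). With only the control libraries in the fit, 1 of the 18 was called in the control response (5.56%, against 3.71% of all genes). The control-response calls were lost without either untreated control library, treated control replicate 1 or either untreated KO library. Those of the KO response were lost without either untreated KO library or treated KO replicate 2.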

How the data were processed

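Whole-number gene counts, which the authors deposited without normalization, were taken for all 8 RNA-seq libraries. The submitters' processing notes name HISAT2, limma and the mm10 build. The study's methods describe other steps (alignment with subjunc, duplicate removal, DESeq2) and a different library kit than the labels. The counting tool and strand setting are not given in the sources used here, so reads of overlapping genes on opposite strands cannot be told apart. All 37310 identifiers, with their order, matched GENCODE vM1 (NCBIM37), which gave symbols, positions and exonic lengths.

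From these counts, CPM with TMM factors, RPKM per union of exons and fold changes were obtained in edgeR 4.0.16 under R 4.3.3 (filterByExpr with a minimum count of 10, leaving 13028 genes, 1 quasi-likelihood model of the 4 groups, Benjamini-Hochberg). The SE is the absolute log2 fold change divided by the square root of F, and intervals are 95% from 4 residual and 5.50 prior degrees of freedom. The precision of a library is limited by its total, 3 counts corresponding to 0.238 to 0.661 CPM. *Wtip* ratios, of summed counts scaled to the TMM library sizes, carry exact conditional and shares Wilson intervals, for counting error only. The script was tested on simulated counts. DESeq2 1.42.0, other size factors, no filter, a replicate block, the libraries of each comparison alone and leaving out each library were alternatives.

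The members and gene lists were chosen with earlier results of these data known. Named were all members, at most 4 called genes by smallest p in each list and comparison, the 3 genes and the list gene most like *Wtip*, 5 tested neighbours on each side, and the targeted gene. Likeness to *Zyx* and *Pxn* and both averaged comparisons were added after seeing the data. *Mical3*, with 2 rows, was left out. Protein sequences were not used here.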

Additional observations from a re-analysis of the deposited data

How the results depend on the processing

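Over all comparisons, 534 log2 fold changes of the 6 tested genes were recomputed under alternatives, of which 475 kept direction and side of the threshold, 21 came to pass it, 4 no longer did and 34 changed sign. All sign changes were of values that had not been called, and 2 libraries per group limit the precision of all of them. In treated KO against control, where 0 genes were called, 1 (*Pxn*) was called with no filter on low counts, by DESeq2 and without treated KO replicate 1, and 2 (*Pxn* and *Trip6*) without treated control replicate 1, so that leaving out a library gave 0 to 2. In the control response 1 gene (*Zyx*) was called with no filter and without either treated KO library, with 0 to 1 over the libraries left out. In the KO response *Zyx* was called with other size factors (RLE), by DESeq2 and without either treated control library or treated KO replicate 1 (0 to 1), and 2 genes (*Zyx* and *Pxn*) with no filter. In the averaged TGF-β response leaving out a library gave 0 to 1, with 0 for each untreated library. In the averaged genotype difference 1 gene (*Pxn*) was called with no filter, by DESeq2 and without treated KO replicate 1, and 2 with *Trip6* added without treated control replicate 1 (0 to 2). Fits on the libraries of a comparison alone and calls with no fold threshold gave the same counts of members, and neither of them nor another alternative gave a call in the untreated comparison. The cause of these changes was not tested.

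Deviations of same-numbered libraries had no constant relation across the comparisons (r = 0.0980 untreated, -0.473 treated, 0.297 in the control and -0.00915 in the KO response). In the treated libraries the negative r means that control replicate 1 deviated with KO replicate 2. The labels state no pairing, so the numbers were not taken to pair the libraries. A replicate block changed no count of members and the sign of 1 value, *Limd1* in the difference of responses (0.00232). With the numbers of the treated KO libraries exchanged, added after seeing the data, the replicate block called 1 member, *Pxn* (0.74, adjusted p = 0.00833 by edgeR), in treated KO against control, where it called 2809 genes in all (21.6%).

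The sign changed when a library was left out, with these lowest and highest log2 values. In the untreated genotype comparison *Lpp* ran from -0.17 to 0.38. In the treated one *Jub* ran from -0.0151 to 0.45, *Zyx* from -0.51 (without treated KO replicate 2) to 1.08 and *Trip6* from -0.13 to 1.13. In the control response *Limd1* ran from -0.11 to 0.19, *Lpp* from -0.10 to 0.45, *Trip6* from -0.49 to 0.77 and *Pxn* from -0.27 to 0.25. In the KO response *Limd1* ran from -0.0279 to 0.16 and *Trip6* from -0.12 to 0.25. In the difference of responses *Jub* ran from -0.19 to 0.28, *Limd1* from -0.12 to 0.18, *Lpp* from -0.14 to 0.41, *Zyx* from -0.24 to 1.34 and *Trip6* from -0.69 to 0.57, and *Limd1* was 0.0634 with no filter, 0.00923 with RLE factors and 0.00931 by DESeq2. In the averaged TGF-β response *Limd1* ran from -0.0218 to 0.13 and *Trip6* from -0.20 to 0.43, and in the averaged genotype difference *Zyx* ran from -0.39 to 0.40.

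Calls over all genes moved more. They numbered 238 (41 to 797 over the alternatives) in the untreated and 1959 (402 to 2823) in the treated genotype comparison, 1194 (139 to 2021) in the control and 889 (136 to 1832) in the KO response, 0 (0 to 211) in the difference of responses, 1923 (1066 to 2433) in the averaged TGF-β response and 1808 (1069 to 2658) in the averaged genotype difference. In treated KO against control 486 genes were called without treated KO replicate 2. In the untreated comparison core focal adhesion calls moved from 1 to 4 with no filter (14.3%, against 3.69% of all genes) or DESeq2 (14.8% against 3.29%). They moved to 5 with the untreated libraries alone (18.5% against 6.12%). With no filter they moved from 5 to 10 in the control response (35.7% against 9.88%) and from 6 to 14 in the KO response (50% against 8.95%). In the difference of responses they moved from 0 to 1 with no filter (3.57% against 1.03%) or DESeq2 (3.7% against 0.23%).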
